A study of Ciona robusta with 15 samples.

Results

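Oral siphons of the sea squirt Ciona robusta taken 8 days after amputation were compared with siphons taken at once, on day 0, across all transcripts. The comparison uses 6 of the 15 libraries of the series, chosen by their labels: day 8 replicates 1, 2 and 3 and day 0 replicates 1, 2 and 3. All animals were wild type siblings, about 6 months old, raised from gametes of a single mating, and about 75 were anaesthetised with MS222 for the experiment. Each library holds polyadenylated RNA from 5 pooled tissue samples, so a value is the average of a pool and the spread between animals is hidden within it. The other 9 libraries, 3 each of non-regenerating siphons and of siphons 1 and 3 days after amputation, entered the estimate of the spread and are given beside the day 8 values. The labels do not say whether pools shared animals, so p-values measure the spread between pools, which may be partly technical. In such bulk tissue, fewer cells of a type and less RNA per cell cannot be told apart.

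The oral siphon is the tube through which a sea squirt draws in water for feeding and breathing. It is built of epidermis under a cellulose-rich tunic, with bands of circular and longitudinal muscle, nerves, blood spaces and sensory pigment organs at the rim. Ciona regrows an amputated siphon completely. Its branchial sac supplies dividing progenitor cells that migrate into the regrowing siphon, and Notch signalling has been tied to this proliferation. A day 0 sample is tissue taken at the moment of amputation, before any response to it.

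The deposited table gives raw read counts for 17745 Ensembl transcript identifiers. The reference table used here lists 21486 genes and shares none of those identifiers (0 matched), so transcripts are named by identifier only, no gene function is given, and the tissue could not be checked against marker genes. Depth was 18531049 to 21646665 counts in the day 0 libraries and 12545397 to 15170419 in the day 8 libraries. Levels are in CPM, counts per 1000000 after scaling by the trimmed mean of M-values (TMM), which corrects for differences in library composition. Of the 17745 transcripts, 15328 had enough counts to be tested. The TMM factors were 0.964 to 1.11 at day 0 and 1.07 to 1.15 at day 8. Some libraries numbered 3 stood apart from their group: across transcripts, day 8 replicate 3 had Spearman correlations of 0.942 and 0.940 with the other day 8 pools and of 0.959 to 0.973 with the day 0 pools, and day 3 replicate 3 had 0.977 with day 0 replicate 1.

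At day 8 no transcript differed from day 0 after adjustment over all 15328 transcripts (0 called, 0% of those tested, edgeR quasi-likelihood test), and the lowest adjusted p was 0.113. An unadjusted p under 0.05 was reached by 2192 transcripts, 14.3% of those tested, with 1270 higher at day 8 (8.29%) and 922 lower (6.02%). Scaled by library totals alone, the split was 1586 higher and 635 lower. The tools disagreed on how many pass: limma voom called 0, DESeq2 called 376 (2.56%, with 230 higher, 1.57%, and 146 lower, 0.994%), and limma voom with library weights called 3920 (25.6%, with 1941 higher, 12.7%, and 1979 lower, 12.9%). Without day 8 replicate 3, which lies apart from the other day 8 pools, edgeR called 79 (0.515%), with 62 higher (0.404%) and 17 lower (0.111%). Leaving out replicate 3 of days 1, 3 and 8 gave 982 of 15546 (6.32%), with 496 higher (3.19%) and 486 lower (3.13%). Leaving out every library numbered 3 gave 2004 of 15444 (13%), with 1024 higher (6.63%) and 980 lower (6.35%), and both of these choices were made with the values in view. No transcript is therefore described below as having risen or fallen, and levels are given pool by pool.

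The differences were small for most transcripts and were spread over both directions. Of the tested transcripts, 7920 had a log2 fold change above 0 and 7408 below 0, with a median of 0.02. The middle of the distribution, from the lower to the upper quartile, ran from -0.32 to 0.37. A difference of at least 2-fold was fitted for 918 transcripts in the higher direction (5.99% of those tested) and for 684 in the lower direction (4.46%). At 4-fold these numbers were 158 (1.03%) and 69 (0.45%), and at 8-fold 36 (0.235%) and 10 (0.0652%). These counts are of fitted group differences, and single pools showed no common excess of higher levels. At least 2-fold off the day 0 mean, day 8 replicate 1 had 1632 higher and 1562 lower. Replicate 2 had 1579 and 1663, and replicate 3 had 570 and 658. In the fitted differences, the excess at 2-fold came from scarce transcripts, by mean over the 6 libraries. It was 203 higher to 99 lower under 1 CPM and 434 to 213 at 1 to 10 CPM. The balance was the reverse above that: 216 to 239 at 10 to 100 CPM, 58 to 121 at 100 to 1000 CPM and 7 to 12 at 1000 CPM and over. Scaling by library totals alone raised the median log2 fold change from 0.02 to 0.15.

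**Figure D1:**
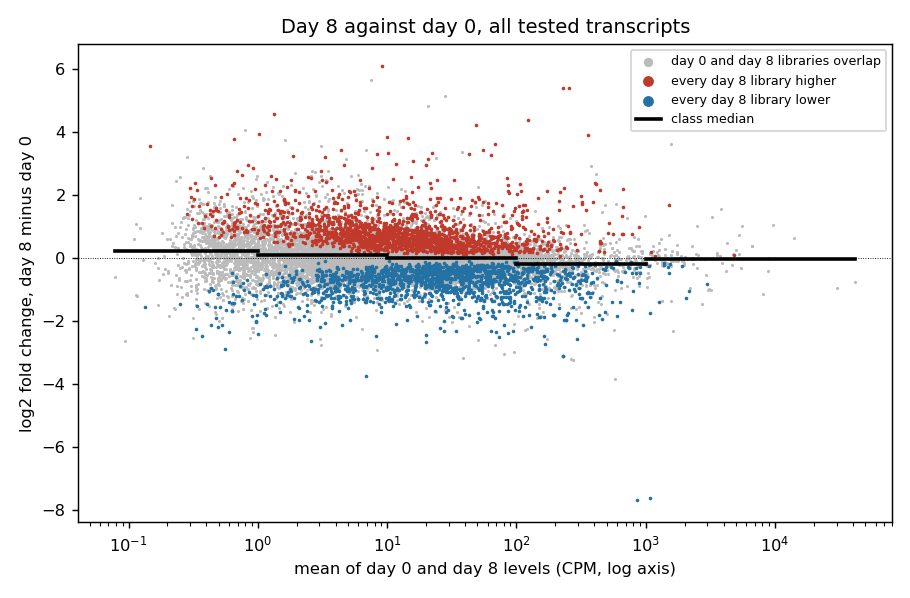
Log2 fold change of day 8 against day 0 (vertical axis) by mean level in CPM (horizontal log axis) for the 15328 tested transcripts, with those whose 3 day 8 libraries all lie above or all below the 3 day 0 libraries in colour and the median of each abundance class as a black line. Most points lie between -0.96 and 1.09, the 5th and 95th percentiles, and the class medians run from 0.24 at the left to -0.17 in the class of 100 to 1000 CPM.

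Whether a transcript was back at its day 0 level was read from the day 0 range, as a description and not a test. A range of 3 pools is narrow, so a pool with no difference would also often lie outside it. The day 8 mean lay within the range of the 3 day 0 pools for 6652 transcripts (43.4%), above it for 4807 (31.4%) and below it for 3869 (25.2%). All 3 day 8 pools lay above all 3 day 0 pools for 1831 transcripts (11.9% of those tested) and below them for 1583 (10.3%), together 22.3%. If the groups did not differ, full separation in either direction would have a probability of 0.1 for a transcript. Transcripts are not independent, and the distance of 22.3% from that base was not tested. With library totals alone in place of TMM, 2498 of the 15328 transcripts were separated upward and 1051 downward. Of these separated transcripts 70.4% were higher, where TMM gave 53.6%. Without day 8 replicate 3, 4012 of the 15328 were above and 3695 below, but fewer pools also make separation easier. Of the transcripts separated with TMM and all pools, 487 in the higher direction (3.18% of those tested) and 417 in the lower (2.72%) also differed by at least 2-fold. The strictest reading asked that every day 8 pool lie at least 2-fold beyond every day 0 pool and that the higher group average at least 1 CPM. It held for 48 higher (0.313% of those tested) and 29 lower transcripts (0.189%).

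Abundance classes were set by the mean over the 6 libraries. The class of 100 to 1000 CPM, with 1286 transcripts, leaned toward lower levels at day 8: its median log2 fold change was -0.17, its libraries were separated downward in 252 transcripts (19.6% of the class) and upward in 124 (9.64%). The class of 1 to 10 CPM, with 5480 transcripts, leaned the other way, with a median of 0.10 and 705 transcripts separated upward (12.9%) against 382 downward (6.97%). Transcripts of 10 to 100 CPM, the largest class with 7192, were balanced, with a median of -0.01, 912 separated upward (12.7%) and 891 downward (12.4%). The 121 transcripts of 1000 CPM and over had a median of -0.05, with 4 separated upward (3.31%) and 13 downward (10.7%). The 1249 transcripts under 1 CPM had a median of 0.24, with 86 upward (6.89%) and 45 downward (3.6%). Under 1 CPM both shares together lie near the probability of 0.1 that separation would have with no difference. Scaling by library totals alone moved all medians up and turned the signs of 2 classes, giving -0.04 for 100 to 1000 CPM, 0.07 for 1000 CPM and over, 0.13 for 10 to 100 CPM and 0.23 for 1 to 10 CPM, so that their order was kept while the direction of the classes of 10 to 100 CPM and of 1000 CPM and over was reversed.

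The lean by class was also read library by library. The level of a class in a library was taken as the median, over its transcripts, of log2 CPM minus the transcript's mean over the 6 libraries. For 100 to 1000 CPM this was 0.108, 0.199 and -0.0355 in day 0 replicates 1, 2 and 3, and -0.161, -0.114 and 0.0398 in day 8 replicates 1, 2 and 3. The groups overlapped, because day 0 replicate 3 lay below day 8 replicate 3, and the difference of -0.169 had an exact two-sided permutation p of 0.2, where 3 pools against 3 cannot go below 0.1. For 1 to 10 CPM it was -0.0314, -0.0818 and 0.0124 at day 0 and 0.125, 0.117 and -0.00374 at day 8, a difference of 0.113 with an exact permutation p of 0.2. In both classes day 8 replicate 3 lay among the day 0 pools. For under 1 CPM, 10 to 100 CPM and 1000 CPM and over the exact permutation p-values were 0.4, 0.8 and 0.2. The differences for 100 to 1000 CPM, 1 to 10 CPM and 1000 CPM and over, the last -0.0673, compare with SDs between pools of 0.118 and 0.105, 0.0472 and 0.0723, and 0.0424 and 0.0263 at days 0 and 8. With 3 pools against 3 this test could not pass 0.05 for any of the 5 classes, so the p-values, which are not adjusted, do not settle whether the classes differ.

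**Figure D2:**
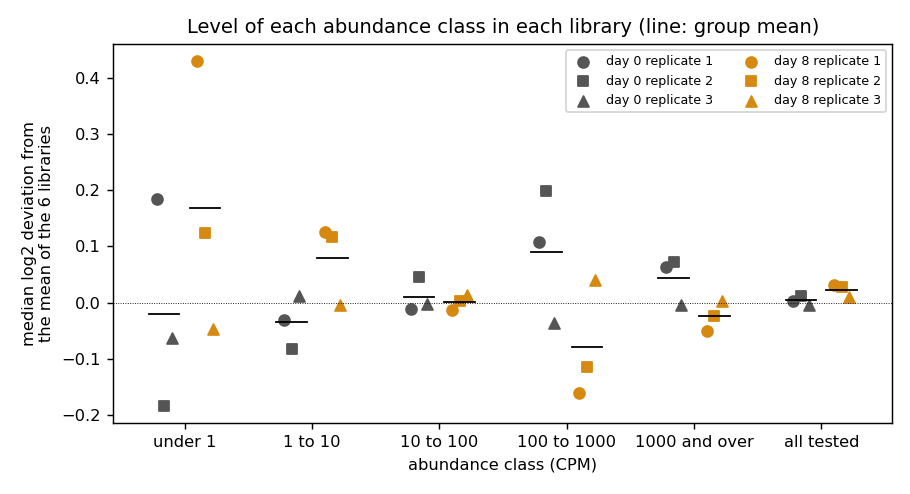
Level of each abundance class in each day 0 and day 8 library, as the median over the class of log2 CPM minus the transcript's mean over the 6 libraries (vertical axis), with the group mean as a line and the replicates as symbols. Day 8 replicates 1 and 2 lie together in the classes of 1 to 10 and 100 to 1000 CPM, while day 8 replicate 3 lies among the day 0 libraries there.

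The share of all counts held by a class was separated between the groups for 100 to 1000 CPM, alone among the classes. These transcripts took 34.08%, 34.6% and 34.0% of the counts in day 0 replicates 1, 2 and 3 and 32.9%, 33.5% and 33.03% in day 8 replicates 1, 2 and 3, so that every day 8 pool lay below every day 0 pool. Transcripts of 1000 CPM and over took 40.2%, 39.2% and 37.01% of the counts in day 0 replicates 1, 2 and 3 and 37.8%, 37.4% and 39.1% in day 8 replicates 1, 2 and 3. Transcripts of 1 to 10 CPM took 2.47%, 2.42% and 2.98% at day 0 and 3.25%, 3.19% and 2.76% at day 8. In these last classes the groups overlapped. With no difference, a class would be fully separated in either direction with a probability of 0.1, and shares within a library are not independent. The separation at 100 to 1000 CPM was not tested, and by median level the groups overlapped in that class.

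The 12 higher and 12 lower transcripts with the lowest p were chosen by rule among those with no overlap between the groups and at least 5 CPM in the higher group. Their adjusted p-values were 0.113 to 0.168, so none passed, and the choice used the comparison itself. Fitted log2 fold changes were 0.94 to 3.26 in the higher set and -2.10 to -0.79 in the lower set.

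Among the higher transcripts ENSCINT00000024202 came first, with 22.8, 27.7 and 20.1 CPM in day 0 replicates 1, 2 and 3 and 74.7, 66.7 and 50.6 CPM in day 8 replicates 1, 2 and 3. Its 3 day 8 pools lay well above day 0 and replicate 3 was the lowest of them. The log2 fold change was 1.44 ± 0.228 (SE, n = 3 pools each; edgeR adjusted p = 0.113). It stood at the same height at day 1 (65.7 CPM) and day 3 (56.1 CPM), whereas non-regenerating siphons were at the day 0 level, 25.7 CPM. ENSCINT00000004456 had 26.3, 13.6 and 25.1 CPM at day 0 and 97.3, 75.5 and 51.2 CPM at day 8, a log2 fold change of 1.79 ± 0.303 (adjusted p = 0.139 in edgeR). Its level was 62.4 CPM at day 1, 74.1 CPM at day 3 and 128 CPM in non-regenerating siphons, the highest of the groups.

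ENSCINT00000025592 had the largest fold change of the higher set, 3.26 ± 0.657 on the log2 scale (adjusted p = 0.168 in edgeR). It held 10.2, 5.75 and 20.1 CPM at day 0 and 116, 174 and 55.2 CPM at day 8, and the pools differed widely within each group. At day 1 it held 44.4, 49.8 and 201 CPM in replicates 1, 2 and 3, so that replicate 3 carries the mean, and at day 3 its mean was 108 CPM; non-regenerating siphons held 154 CPM. ENSCINT00000032868 had 1.79, 1.73 and 1.63 CPM at day 0, the tightest day 0 values of the set, and 8.06, 6.22 and 5.44 CPM at day 8. Its log2 fold change was 1.93 ± 0.353 (adjusted p = 0.168 in edgeR).

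The means at the other stages are given for some of the higher transcripts; the courses were not tested against each other. ENSCINT00000004967 had 10.1, 8.87 and 8.97 CPM at day 0 and 21.2, 31.6 and 17.8 CPM at day 8; its mean was 23.3 CPM at day 1 but 11.5 CPM at day 3, close to day 0. ENSCINT00000026265 had 7.09, 7.38 and 9.50 CPM at day 0 and 16.4, 16.4 and 15.2 CPM at day 8, with means of 11.3 CPM at day 1 and 13.3 CPM at day 3. Its 3 day 8 pools agreed closely, replicate 3 included, and non-regenerating siphons stood below day 0 at 5.36 CPM. ENSCINT00000007911 was at 15.2, 25.8 and 20.9 CPM at day 0 and 42.9, 38.8 and 37.3 CPM at day 8, with means of 25.9 and 28.4 CPM at days 1 and 3. For it and for ENSCINT00000026265 the mean was highest at day 8 among the stages after amputation. This also held for several, but not all, of the other higher transcripts, a set picked for being high at day 8. The means at days 1 and 3 share the day 0 pools as their reference, so they are set side by side and not counted as repeats.

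Among the lower transcripts ENSCINT00000002984 and ENSCINT00000002977 came first, with log2 fold changes of -1.44 ± 0.227 and -1.47 ± 0.238 (adjusted p = 0.113 for each in edgeR). The first had 157, 136 and 127 CPM at day 0 and 47.0, 48.3 and 59.95 CPM at day 8, where replicate 3 was again nearest to day 0. The log2 ratio of the counts of the pair varied by an SD of 0.0652 over the 15 libraries, so they may share reads and be a single signal. ENSCINT00000015921 was the most abundant of the lower set, at 825, 698 and 653 CPM at day 0 and 179, 169.9 and 227 CPM at day 8. That is 26.4% of the day 0 mean and a log2 fold change of -1.92 ± 0.386 (adjusted p = 0.168 in edgeR). Its day 3 pools held 460.2, 432 and 1138 CPM, so day 3 replicate 3 lay above day 0, and non-regenerating siphons stood at 186 CPM, the day 8 level.

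ENSCINT00000035546 was at 54.6, 66.5 and 34.9 CPM at day 0 and at 20.2, 18.2 and 18.9 CPM at day 8, with a log2 fold change of -1.44 ± 0.313 (adjusted p = 0.168 in edgeR). ENSCINT00000011899 was at 22.2, 14.8 and 20.3 CPM at day 0 and 5.70, 3.75 and 3.91 CPM at day 8, 23.3% of the day 0 mean. Non-regenerating siphons held 13.9, 34.5 and 15.0 CPM in replicates 1, 2 and 3, so that replicate 2 carries their mean of 21.1 CPM. ENSCINT00000030616 was at 34.4, 35.7 and 42.1 CPM at day 0 and 17.2, 17.8 and 13.8 CPM at day 8. In ENSCINT00000030616 day 8 replicate 3 was the pool farthest from day 0, in ENSCINT00000035546 and ENSCINT00000011899 it lay between the other day 8 pools, and in the remaining 9 of the 12 lower transcripts it was the nearest. In the higher set it was nearest to day 0 in 11 of 12, ENSCINT00000026108 being the exception with 8.48, 7.98 and 8.97 CPM. Day 8 replicate 3 was also nearer to day 0 over all tested transcripts, so this is not particular to the chosen sets.

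**Figure D3:**
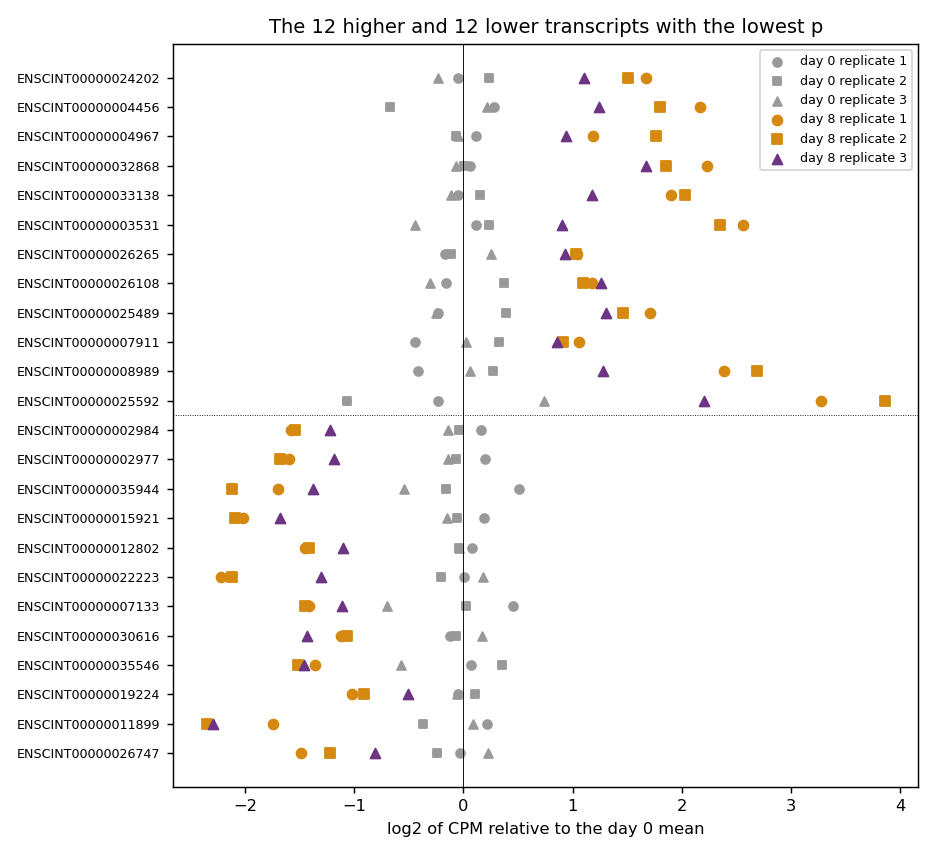
Log2 of CPM relative to the day 0 mean (horizontal axis) in each day 0 and day 8 library for the 12 higher transcripts (above the dotted line) and the 12 lower ones (below it) with the lowest p. Day 8 replicate 3 (purple triangle) is the day 8 pool nearest to day 0 in 11 of the higher and 9 of the lower transcripts.

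The largest fold changes, also picked by rule, came with wide spreads between pools. ENSCINT00000032623 held 0.391, 0.240 and 0.144 CPM at day 0 and 38.1, 15.4 and 0.512 CPM at day 8, so its log2 fold change of 6.10 ± 1.59 (adjusted p = 0.193 in edgeR) comes from day 8 replicates 1 and 2. ENSCINT00000019098 held 16.3, 7.19 and 8.30 CPM at day 0 and 948, 355 and 49.8 CPM at day 8, a log2 fold change of 5.41 ± 1.26 (adjusted p = 0.168 in edgeR). Its day 8 pools differed widely, with replicate 3 lowest, and its mean was 451 CPM, against 145 CPM at day 3 and 70.1 CPM in non-regenerating siphons. At day 1 it held 46.5, 16.3 and 315 CPM, again with replicate 3 far above the others. ENSCINT00000003420, at 1050.2, 396 and 52.1 CPM at day 8, followed it with an SD of the log2 ratio of 0.0451 over the libraries, so the pair may be a single signal.

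In the lower direction ENSCINT00000011757 held 3655, 2567 and 227 CPM at day 0 and 3.75, 5.57 and 23.6 CPM at day 8. ENSCINT00000036340 held 3206, 1753 and 193 CPM at day 0 and 1.95, 3.58 and 19.3 CPM at day 8. Every day 8 pool lay at least 9.6-fold below every day 0 pool in both, the widest separations in the lower direction. Their log2 fold changes were -7.61 ± 2.40 and -7.69 ± 2.46 (adjusted p = 0.207 and 0.211 in edgeR). Day 0 replicate 3 held far less than the other day 0 pools; without it the adjusted p-values were 0.26 for each. Both were also low at day 1, at 26.3 and 39.5 CPM, and in day 3 replicates 1 and 2, at 2.23 to 6.07 CPM, but not in day 3 replicate 3, at 2717 and 1626 CPM.

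Several more transcripts are named for the gap between the groups, a choice made with their values in view. ENSCINT00000032608 had the widest gap in the higher direction, 5.67-fold, with 1.56, 4.12 and 9.02 CPM at day 0 and 51.1, 95.5 and 132 CPM at day 8. Here day 8 replicate 3 was the pool farthest from day 0; the log2 fold change was 4.24 ± 0.868 (adjusted p = 0.168 in edgeR). ENSCINT00000036027 had 25.1, 2.20 and 6.57 CPM at day 0 and 296, 325 and 77.8 CPM at day 8, with replicate 3 lowest. ENSCINT00000028264 had 30.3, 36.9 and 34.2 CPM at day 0 and 5.70, 5.51 and 7.49 CPM at day 8, a gap of 4.04-fold between tight groups, with a log2 fold change of -2.44 ± 0.747 (adjusted p = 0.203 in edgeR). Fitted with edgeR in the 6 day 0 and day 8 libraries alone, ENSCINT00000028264 had an adjusted p of 0.0288. ENSCINT00000011487 had 438, 314 and 767 CPM at day 0 and 81.1, 80.6 and 96.7 CPM at day 8. Among all transcripts with such a 2-fold gap, day 8 replicate 3 was nearest to day 0 in 34 of the 48 higher and in 23 of the 29 lower ones. This is not particular to them. Over all tested transcripts the median absolute log2 distance from the day 0 mean was 0.471, 0.475 and 0.280 in day 8 replicates 1, 2 and 3.

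**Figure D4:**
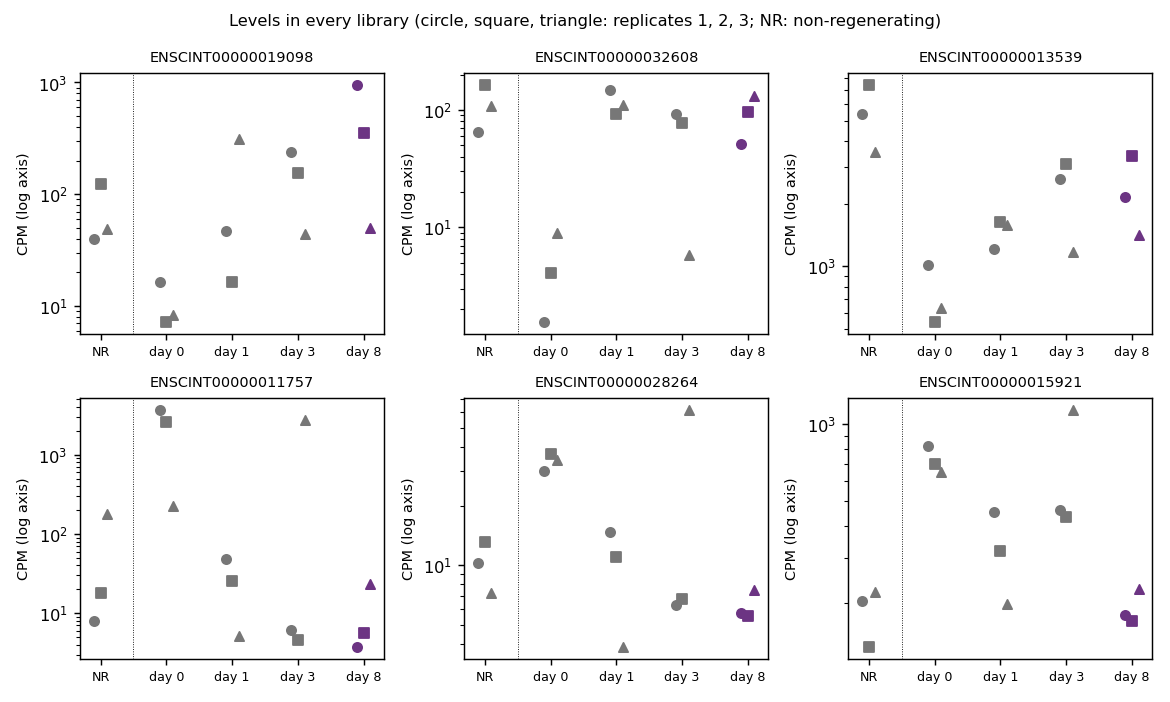
CPM on a log axis in all 15 libraries for 3 transcripts higher and 3 lower at day 8 than at day 0, by group, with replicates 1, 2 and 3 as circle, square and triangle. In each panel the 3 day 8 pools lie beyond the 3 day 0 pools, while day 3 replicate 3 lies near or above day 0 in the 3 lower transcripts and in ENSCINT00000032608.

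Among transcripts without overlap, the largest differences of mean CPM in the higher direction were those of ENSCINT00000013539, ENSCINT00000012587 and ENSCINT00000037089. ENSCINT00000013539 held 1012, 541 and 632 CPM at day 0 and 2149, 3391 and 1423 CPM at day 8, a log2 fold change of 1.67 ± 0.421 (adjusted p = 0.179 in edgeR). ENSCINT00000012587 held 236, 148 and 339 CPM at day 0 and 1183, 1497 and 592 CPM at day 8. ENSCINT00000037089 had 488, 200.2 and 301 CPM at day 0 and 1017, 1288 and 703 CPM at day 8. All 3 were higher still in non-regenerating siphons, at 5452, 5152 and 2291 CPM. In the lower direction, ENSCINT00000036579 came after ENSCINT00000011757 and ENSCINT00000036340 by difference of means without overlap, and was only just separated: 3411, 3171 and 2144.3 CPM at day 0 against 670.1, 799 and 2143.1 CPM at day 8, with replicate 3 at the edge of the day 0 range (adjusted p = 0.473 in edgeR).

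The 4 transcripts with the highest mean level overlapped between the groups. ENSCINT00000009238, the most counted, held 62153, 55682 and 41026 CPM at day 0 and 23725, 20735 and 48268 CPM at day 8, and ENSCINT00000009234 held 49188, 39990 and 30328 CPM at day 0 and 16100, 13116 and 33098 CPM at day 8. In both, day 8 replicates 1 and 2 stood below every day 0 pool and replicate 3 within the day 0 range. ENSCINT00000026136 was the reverse, with 4681, 11549 and 2776 CPM at day 0 and 20813, 14938 and 3406 CPM at day 8. ENSCINT00000034024 had 14435, 15027 and 3786 CPM at day 0 and 19080, 21145 and 11272 CPM at day 8. Their adjusted p-values were 0.664 to 0.883 in edgeR.

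Day 8 replicates 1 and 2 were close to each other and replicate 3 lay apart from them. The Spearman correlation of log2 CPM across transcripts, which are not independent replicates, was 0.983 between replicates 1 and 2, and 0.942 and 0.940 between replicate 3 and each of them. With the day 0 pools, replicate 3 correlated at 0.959 to 0.973, above its values with its own group, where replicates 1 and 2 reached 0.922 to 0.928. The library nearest to replicate 3 was day 1 replicate 2 (0.980), and replicates 1 and 2 were nearest to each other and next to day 1 replicate 3 (0.974 and 0.975). The biological coefficient of variation was 0.165 for day 8 replicates 1 and 2, and 0.365 and 0.375 when replicate 3 was paired with each; for pairs of day 0 pools it was 0.199 to 0.337. Whether a label, a pool's animals or the library accounts for this was not tested, and replicate 3 was kept under its label.

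Counted by transcript, day 8 replicate 3 was at least 2-fold off the mean of the other day 8 pools in 2902 transcripts (18.9% of those tested), 1497 above and 1405 below. The same count was 1299 and 1393 for day 8 replicates 1 and 2 and 1075, 1258 and 1883 for day 0 replicates 1, 2 and 3. Among the 8599 transcripts of at least 10 CPM it was 1163 for day 8 replicate 3, 259 and 284 for the other day 8 pools and 181 to 646 at day 0. Against the day 0 mean, day 8 replicates 1 and 2 were at least 2-fold higher in 1632 and 1579 transcripts and lower in 1562 and 1663, whereas replicate 3 was higher in 570 and lower in 658. Replicate 3 lay within the day 0 range in 50.1% of transcripts and replicates 1 and 2 in 33.8% and 33.4%. For the pools of days 1 and 3 this share ran from 31.8% to 54.5%, with day 3 replicate 3 at the top. A pool with no difference would also often lie outside a range of 3 pools.

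**Figure D5:**
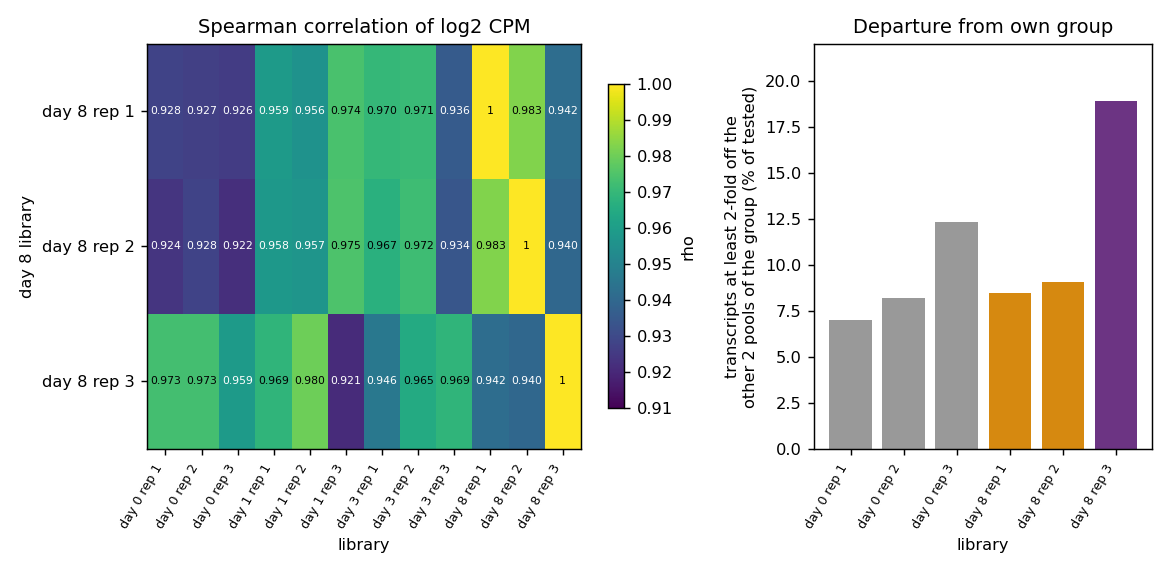
Left, Spearman correlation of log2 CPM of each day 8 library with the day 0, 1, 3 and 8 libraries; right, the percentage of tested transcripts in which a library is at least 2-fold off the mean of the other 2 pools of its group. Day 8 replicate 3 has 0.942 and 0.940 with its own group, 0.973 with day 0 replicates 1 and 2, and the highest bar, 18.9%.

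The transcripts that departed most in day 8 replicate 3 did so in both directions. ENSCINT00000025453 held 0.834 and 0.821 CPM in day 8 replicates 1 and 2 and 25.4 CPM in replicate 3, where day 0 had 37.9, 51.9 and 9.93 CPM. ENSCINT00000019935 held 2.71 and 1.47 CPM against 47.6 CPM, and ENSCINT00000033099 4.58 and 4.87 CPM against 101 CPM. On the other side ENSCINT00000015793 held 73.01 and 134 CPM in replicates 1 and 2 and 2.37 CPM in replicate 3, where day 0 had 3.79, 4.36 and 12.1 CPM. ENSCINT00000032432 held 68.01 and 92.7 CPM against 2.18 CPM, with 2.46, 1.92 and 0.288 CPM at day 0. ENSCINT00000021873 differed also between replicates 1 and 2, at 54.8 and 7.92 CPM, with 0.256 CPM in replicate 3. Day 1 replicate 3 was like day 8 replicates 1 and 2 in these, at 0.706 CPM for ENSCINT00000025453, 154 CPM for ENSCINT00000015793 and 114 CPM for ENSCINT00000032432, while day 1 replicates 1 and 2 were not, at 24.01 and 32.7, 7.75 and 3.41, and 1.30 and 1.73 CPM.

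How far day 8 replicate 3 shared the pattern of the others was read from transcripts picked mainly by the other day 8 pools. Of the 62 higher transcripts called without it, it lay above all day 0 pools in 44, within their range in 9 and below it in 9, and in 0 did it reach the lower of the other day 8 pools. The median log2 distance from the day 0 mean was 2.04 for replicates 1 and 2 and 0.62 for replicate 3. Of the 17 lower ones it lay below all day 0 pools in 15 and within their range in 2, with medians of -1.63 and -0.78. A wider set took transcripts in which the mean of replicates 1 and 2 was at least 2-fold off day 0, without overlap and with at least 5 CPM. For this set the 5 CPM applied to the mean of the higher group, and the day 8 mean included replicate 3. In its 795 higher members replicate 3 lay above the day 0 range in 420, within it in 293 and below it in 82, and in its 1113 lower members below it in 449, within it in 504 and above it in 160. There it reached the nearer of the other day 8 pools in 54 of the higher and 39 of the lower. Both readings use the same day 0 pools on each side, so these counts are a description.

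Day 8 was also set against the earlier stages of regrowth, to ask where the late profile differs from them. Against day 1 edgeR called 0 transcripts (0%), while 222 had an unadjusted p under 0.05 (1.45%), 95 higher (0.62%) and 127 lower (0.829%) at day 8. That share is below 0.05, the share the threshold itself would give with no difference. Day 8 replicate 3 was nearest to day 1 replicate 2, and day 1 replicate 3 close to day 8 replicates 1 and 2, so the comparison rests on groups that each hold a pool like the other group; whether these labels are right was not tested. Against day 3 it called 0 (0%), while 459 had such a p (2.99%), 184 higher (1.2%) and 275 lower (1.79%). For days 1 and 3 in turn, DESeq2 called 1 and 18 of the 15328 transcripts given to each tool, voom 0 and 0, and voom using library weights 0 and 28. The transcripts with the lowest p against day 1 were ENSCINT00000035931, at 1.12, 2.07 and 2.47 CPM at day 1 and 5.70, 6.10 and 9.16 CPM at day 8, and ENSCINT00000034049, at 71.7, 55.2 and 41.2 CPM at day 1 and 24.3, 28.5 and 38.8 CPM at day 8. Their log2 differences from day 1 were 1.87 ± 0.369 and -0.88 ± 0.21, each with an adjusted p of 0.9999 in edgeR. ENSCINT00000035931 was low at day 0 too, at 2.01, 2.35 and 2.54 CPM, and stood at 4.58, 4.82 and 6.51 CPM at day 3. The next counts left out libraries numbered 3, again a choice made with the values in view. Without all of them edgeR called 528 of 15444 tested transcripts between days 8 and 1, 186 of them higher at day 8. It called 46 of 15444 between days 8 and 3. With only those of days 1, 3 and 8 left out, it called 58 of 15546 between days 8 and 1. The comparison with non-regenerating siphons gave 2589 called transcripts (16.9%), 1250 of them higher at day 8 (8.16%) and 1339 lower (8.74%); scaling by library totals alone turned this split to 4937 higher and 504 lower. Without day 8 replicates 1 and 3 in turn, 1586 and 1638 were called.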

How the data were processed

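Per the labels' protocols, polyadenylated RNA of 5 pooled samples per library was sequenced on an Ion Proton. The authors deposited raw read counts per transcript. TopHat, Bowtie and HTSeq appear in the submitters' processing notes. Versions, genome build, annotation and strand setting are not given in the sources used. Overlapping or antisense transcripts therefore cannot be told apart. edgeR's expression filter (minimum count 10) kept 15328 of 17745 transcripts, holding at least 99.95% of each library's counts. Counts were TMM-scaled and fitted with a mean per group over all 15 libraries (edgeR 4.0.16, glmQLFit robust, glmQLFTest, R 4.3.3), with two-sided p-values adjusted by Benjamini-Hochberg and a threshold of 0.05. A standard error is the log2 fold change over the square root of F. Log2 CPM used a prior count of 0.5. DESeq2 1.42.0 and limma 3.58.1 served as alternatives. No pair of day 0 pools and no pair of day 8 pools agreed within sampling noise (chi-square per transcript of at least 24). Pairs within the other groups were not compared in this way.

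Named transcripts followed a rule. It took the 12 higher and 12 lower with the lowest p, without overlap and with at least 5 CPM in the higher group, and the 3 in each direction with the largest fold change, the largest change of level and the largest departure of day 8 replicate 3. It also took the 4 most abundant and, for day 8 against day 1, 2 per direction by lowest p. Fewer are named, and those named for their gap fall outside the rule. The comparison, lists and alternatives were chosen with earlier results of these data known. Counting error is large for the lowest values, such as the 7, 5 and 3 counts of ENSCINT00000032623 in day 0 replicates 1, 2 and 3.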

Additional observations from a re-analysis of the deposited data

How the results depend on the processing

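The count of transcripts called between day 8 and day 0 was 0 in edgeR and stayed 0 with the size factors of DESeq2, with library totals alone, either filter on low counts, without the non-regenerating group and with limma voom. It was 1 in the 6 libraries alone (ENSCINT00000028264), 376 in DESeq2 and 3920 in limma voom with library weights. The count was 0 to 79 when a single day 0 or day 8 library was left out, the 79 without day 8 replicate 3. Without the libraries numbered 3 of days 1, 3 and 8 it was 982 (496 higher, 486 lower), and without all libraries numbered 3 it was 2004 (1024 higher, 980 lower). Both sets were picked with the values in view. At an unadjusted p under 0.05, leaving out single libraries gave 669 to 1668 higher and 483 to 1457 lower. Library weights gave 3086 and 2999. Without the libraries numbered 3 of days 1, 3 and 8 there were 1753 lower, and without all numbered 3 there were 2341 higher and 2056 lower. Library totals alone gave 1586 higher and 635 lower, 71.4% higher where TMM gave 57.9%.

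Numbers are shared across groups. The deviations of same-numbered pools of days 0 and 8 had correlations of 0.00697, 0.0151 and -0.11 for numbers 1, 2 and 3. Differently numbered pairs had -0.136 to 0.107. Only days 0 and 8 were compared, so this does not settle whether a number marks a shared batch. With the replicate block edgeR called 0, with 1173 higher and 890 lower at an unadjusted p under 0.05.

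The median log2 fold change, 0.02 in the report, was 0.00162 with the size factors of DESeq2, 0.15 with library totals, 0.0024 with at least 10 CPM in 3 libraries, -0.00111 in the 6 libraries, 0.00605 without the non-regenerating group, 0.0017 in DESeq2, 0.0393 with library weights and -0.00157 without the libraries numbered 3 of days 1, 3 and 8. Leaving out single libraries gave 0.00808 to 0.0363.

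Separated transcripts without one day 8 pool numbered 239 to 356 under 1 CPM, 1365 to 2599 for 1 to 10 CPM, 2083 to 3905 for 10 to 100 CPM, 406 to 797 for 100 to 1000 CPM and 22 to 50 for 1000 CPM and over, with 2215 to 4012 higher and 1920 to 3695 lower. The highest of each range is without replicate 3; fewer pools also make separation easier. Library totals alone gave 1051 lower.

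Against day 1, DESeq2 called 1, and 58 were called without the libraries numbered 3 of days 1, 3 and 8 and 528 without all numbered 3. Against day 3 these were 18, 1 and 46, and library weights gave 28. Against non-regenerating siphons library totals alone gave 5441 (4937 higher, 504 lower), and leaving out single libraries gave 1586 to 2569.

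Of 55 transcripts picked by the naming rule or for their gap, 53 kept their direction under every alternative that gave them a value (17 or 18), and 49 passed in at least 1. They were picked from the same libraries that the alternatives reuse, so these counts are no independent support. Some alternatives call many transcripts: 3920 of 15328 (25.6%) with library weights and 2004 of 15444 (13%) without all libraries numbered 3. The matching counts over all tested transcripts are not given. The log2 fold change of ENSCINT00000033099, -0.41 in all libraries, ran from -3.37 to 0.11 when single libraries were left out, and was above 0 without day 8 replicate 1 or 2 (0.11 each). That of ENSCINT00000021873, 2.19 in all libraries, ran from -0.16 to 2.87 and was below 0 without day 8 replicate 1. The cause of these changes was not tested. Depth limits the transcripts under 1 CPM most.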
